A study of Homo sapiens with 2 samples.

Results

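The genes described here are 34 regulators of chromatin, comprising subunits of the Polycomb repressive complexes, histone demethylases, histone acetyltransferases and deacetylases, ATP-dependent nucleosome remodellers and enzymes that write or erase DNA methylation. They were taken by name from a list that was chosen with earlier results of these data known. All 34 were found, each under a single Ensembl identifier, among the 55797 genes measured. RNA-seq was performed on 1 library of live cells and 1 library of processed cells. Both came from a single culture of H1 cells (an established line of human embryonic stem cells) that had been differentiated to Stage 6, where insulin-expressing cells are present, and then split. Live cells were lysed directly and their RNA was isolated with the RNeasy protocol. Processed cells went through MARIS, in which cells are fixed with paraformaldehyde, permeabilized, stained with antibodies and sorted before their RNA is released by protease digestion. All cells were collected after the sort, so no cell type was selected, and both libraries are mixtures of which insulin-expressing cells are only a part.

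Polycomb proteins keep developmental genes silent. Polycomb repressive complex 2 (PRC2) methylates histone H3 through EZH1 or EZH2, and PRC1 ubiquitinates histone H2A through RING1 or RNF2. Trithorax proteins, the demethylases KDM6A and KDM6B, acetyltransferases and SWI/SNF remodellers counteract this silencing. In the pancreas, Polycomb repression is known to be removed and redrawn as endoderm becomes endocrine tissue.

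Levels are given as FPKM, a count of sequenced fragments scaled by transcript length and by the size of the library, so that levels can be compared between genes. Each FPKM carries a lower and an upper bound in the files, printed below in parentheses. These bounds describe a single library, and their level is not stated. Differences are log2 ratios of processed over live FPKM after 1 was added to both values, which makes the ratio of a weakly expressed gene smaller than its FPKM would give. With 1 library per condition no difference has a replicate check, and no p-value is given. In bulk RNA, fewer cells of a type and less RNA per cell cannot be told apart.

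The number of genes reaching 1 FPKM was similar in both libraries, 16004 in live and 15957 in processed cells. FPKM is scaled by library size, so these counts do not measure depth. Among genes with a single annotated transcript, short ones left out, 8304 were above 0 FPKM in live but 6176 in processed cells. The reason for that difference was not tested. The labelled cell type was borne out by pancreatic markers. Insulin (INS) was at 98.3 FPKM in live cells and at 121 FPKM after processing, and glucagon (GCG) was at 135 and 131 FPKM. The 8 endocrine and pancreatic markers examined were divided between the libraries. With separate bounds, INS, SST and PDX1 were higher in processed cells. NEUROG3 and NKX2-2 were lower with separate bounds, at log2 ratios of -0.41 and -0.31. The bounds of the other 3, GCG among them, overlapped. The cultures also held RNA of other cell types. All 4 liver markers were higher in processed cells, 3 with separate bounds (AFP, 460 and 550 FPKM), and all 4 mesenchymal markers were lower, 3 with separate bounds (VIM, 514 and 485 FPKM). The 4 pluripotency markers were divided, with LIN28A at 119 and 88.7 FPKM and DPPA4 at 23.5 and 18.1 FPKM, but NANOG at 1.27 and 7.34 FPKM and POU5F1 at 7.92 and 8.53 FPKM with overlapping bounds. Of 4 blood and macrophage markers, PTPRC, CD14 and AIF1 were at 0 in processed cells, and the highest in live cells was AIF1 at 2.71 FPKM. The remaining marker, CD68, was at 0.830 in live and 0.703 FPKM in processed cells, with overlapping bounds. The part of these cell types in the values below was not tested.

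The chromatin regulators were abundant in both libraries. In live cells they ranged from 1.77 FPKM for CBX7 to 186 FPKM for HDAC2, with a median of 29.1 FPKM, against a median of 11.1 FPKM over the 13573 protein-coding genes that reached 1 FPKM in either library. In processed cells they ranged from 0.701 to 172 FPKM for the same genes, with a median of 24.1 FPKM. In each library 28 of the 34 lay above the protein-coding median. Their order was largely kept, with a Spearman's rho of 0.963 between live and processed levels across the 34 genes (a description across genes from 1 pair of libraries). The median distance from FPKM to its bounds was 3.11% of the value in live and 3.48% in processed cells. For 3 genes the quantification had the status FAIL in 1 library, with a lower bound of 0 and a very wide upper bound. These were KDM1A and SETD2 in live cells and ARID1A in processed cells.

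**Figure D1:**
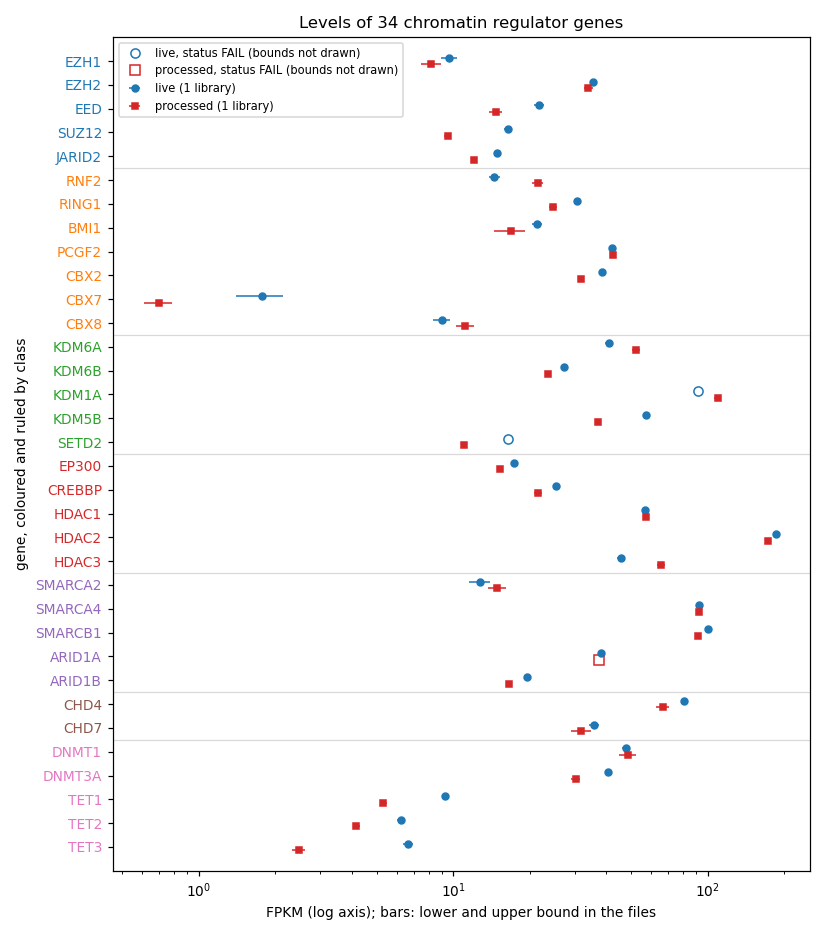
FPKM of the 34 genes (log axis) in live (circles) and processed cells (squares), grouped by class, with 1 library each and bars from the lower to the upper bound in the files. Levels run from 0.701 FPKM (CBX7, processed) to 186 FPKM (HDAC2, live), and in most rows the circle and the square lie close together; open symbols without bars mark status FAIL.

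Live and processed cells were compared to see how MARIS as a whole affects the RNA that is measured. The method of RNA isolation differed together with fixation, staining and sorting, so these steps cannot be told apart. Of the 34 genes, 1 differed more than 2-fold. It was TET3, which was lower in processed cells. Over all 17326 genes that reached 1 FPKM in either library, 6.19% were more than 2-fold lower and 6.57% more than 2-fold higher. Among genes that reached 10 FPKM in either library, which TET3 did not, 2.02% were more than 2-fold lower, and none of the 34 genes was (29 reached it). Smaller differences were frequent and mostly in the same direction. The bounds of live and processed cells were separate for 24 of the 34 genes, of which 20 were lower and 4 higher in processed cells. The same held for 43.7% (lower) and 28.1% (higher) of all genes, so that 58.8% of the chromatin regulators stood against 43.7% for lower values, and 11.8% against 28.1% for higher ones. At any size, 24 of the 34 were lower, or 70.6%, against 58.3% of all genes. Among the 13573 protein-coding genes, 47.0% were lower and 25.6% higher with separate bounds, and 61.4% were lower at any size. These shares lie nearer to those of the 34 genes. More than 2-fold, 3.53% of protein-coding genes were lower and 3.15% higher. The median log2 ratio was -0.21 for the 34 genes, -0.09 for all genes and -0.11 for protein-coding genes. When processed FPKM was divided by the median processed to live ratio of 0.932, the median of the 34 genes was -0.11, 22 of them remained below 0, and separate bounds were found for 16 lower and 8 higher genes. The lower genes whose bounds then overlapped were EZH1, BMI1, HDAC2 and SMARCB1. Over all genes that division gave 6180 lower and 6022 higher genes with separate bounds, in place of 7570 and 4867.

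**Figure D2:**
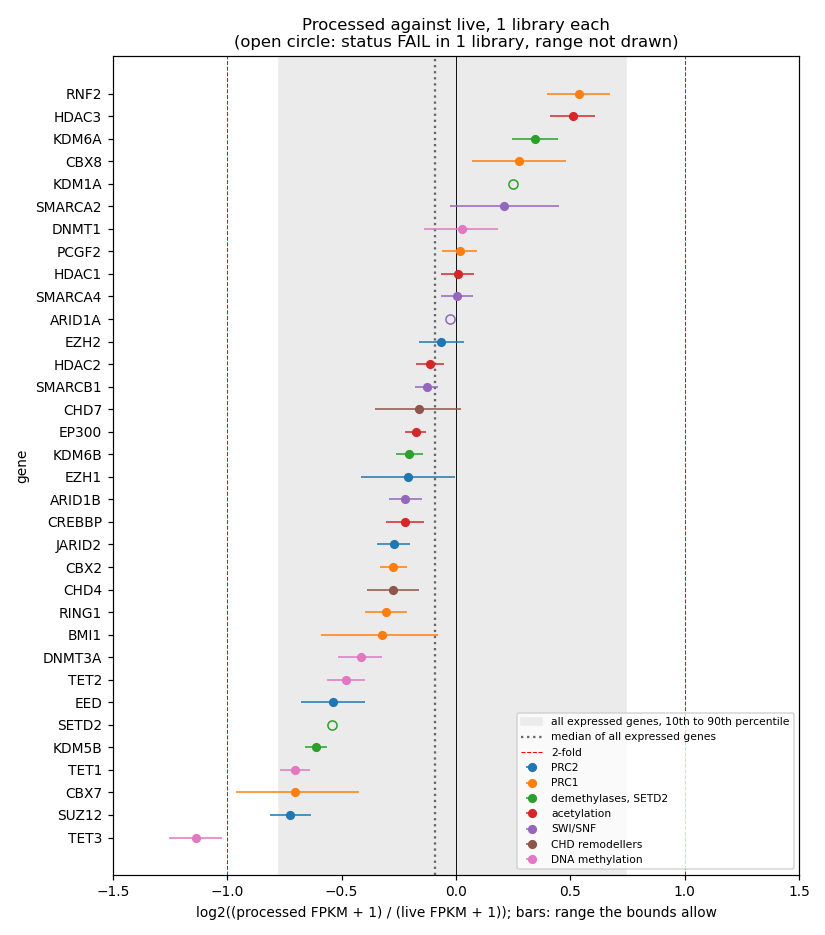
Log2 ratio of processed to live FPKM for the 34 genes in order of the ratio, with bars for the range that the bounds of both libraries allow, the 10th to 90th percentile of all expressed genes in grey and 2-fold as dashed lines. TET3 at -1.14 is the only gene beyond the 2-fold line, and RNF2 at 0.54 is the highest.

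The largest difference of the list was in an enzyme of DNA demethylation. TET1, TET2 and TET3 oxidize methylcytosine, the first step of active removal of DNA methylation. TET3 (chromosome 2, 74229840 to 74329698 on GRCh37/hg19) was at 6.64 FPKM (6.35 to 6.93) in live cells and 2.47 FPKM (2.33 to 2.62) in processed cells, 2.68-fold lower on the FPKM scale and a log2 ratio of -1.14. TET1 (chromosome 10, 70320413 to 70454239) was at 9.27 FPKM (9.07 to 9.48) in live and 5.31 FPKM (5.14 to 5.47) in processed cells, a log2 ratio of -0.70. TET2 (chromosome 4, 106067032 to 106200973) was at 6.22 FPKM (6.00 to 6.43) and 4.17 FPKM (4.02 to 4.31), a log2 ratio of -0.48. All 3 TET genes were thus lower in processed cells with separate bounds, as were 43.7% of all genes. They were also among the long transcripts of the list, with longest annotated transcripts of 9612, 10166 and 12060 nt for TET1, TET2 and TET3. The order of the 3 genes was not the same in both libraries. TET2 and TET3 did not differ beyond their bounds in live cells, where the TET2 to TET3 ratio was 0.937, whereas TET2 was 1.68 times TET3 in processed cells. The locus of TET1 is overlapped by the processed pseudogene RP11-119F7.2, at 17.1 in live and 12.7 FPKM in processed cells with lower bounds of 0, and by RP11-119F7.4, which was higher in processed cells (2.16 and 10.1 FPKM). The share of fragments between these genes and TET1 was not tested.

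The 250 bases before the start of each of the 3 TET loci are shown, read from GRCh37 on the plus strand. Every CG dinucleotide, the substrate of DNA methylation, is in capitals. A link between these sequences and the lower values in processed cells was not tested. The positions are chr10:70320163-70320412 for TET1, chr4:106066782-106067031 for TET2 and chr2:74229590-74229839 for TET3.
TET1: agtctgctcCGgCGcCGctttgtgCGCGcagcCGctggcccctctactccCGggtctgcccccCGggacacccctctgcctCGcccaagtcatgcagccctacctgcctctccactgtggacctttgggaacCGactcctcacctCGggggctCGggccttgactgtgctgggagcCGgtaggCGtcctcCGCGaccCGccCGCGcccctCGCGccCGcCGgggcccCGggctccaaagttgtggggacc
TET2: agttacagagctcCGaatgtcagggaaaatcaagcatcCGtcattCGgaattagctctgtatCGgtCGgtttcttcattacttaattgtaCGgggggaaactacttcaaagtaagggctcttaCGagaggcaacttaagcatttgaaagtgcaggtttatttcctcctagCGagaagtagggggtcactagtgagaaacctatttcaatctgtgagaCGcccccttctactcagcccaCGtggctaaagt
TET3: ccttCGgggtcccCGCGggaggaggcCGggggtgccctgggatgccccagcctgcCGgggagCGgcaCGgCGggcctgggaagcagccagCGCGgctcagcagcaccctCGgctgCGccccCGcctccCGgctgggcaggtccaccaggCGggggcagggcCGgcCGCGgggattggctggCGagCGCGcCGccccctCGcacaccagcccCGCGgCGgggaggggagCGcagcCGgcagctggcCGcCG

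Read this way, CG occurred 24 times before TET1, 10 times before TET2 and 30 times before TET3 (the letters CG read the same on both strands). Among 13573 protein-coding genes with a window of the same length, 29.5% held at least as many as TET1, 72.1% at least as many as TET2 and 15.5% at least as many as TET3. The median was 24 over the 33 chromatin regulators with an annotated strand and 17 over protein-coding genes. Each window ends where the files begin the locus, and other annotations can place the start of transcription elsewhere, as later ones do for TET3.

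The DNA methyltransferases differed less. DNMT1, which copies methylation after replication, was at 47.7 FPKM (45.9 to 49.6) in live and 48.6 FPKM (44.9 to 52.2) in processed cells, with overlapping bounds. The de novo enzyme DNMT3A was at 40.7 FPKM (39.6 to 41.9) in live and 30.2 FPKM (29.0 to 31.5) in processed cells, a log2 ratio of -0.42 with separate bounds. DNMT1 and DNMT3A were therefore closer to each other in live cells (a ratio of 1.17) than in processed cells (1.61). The locus of DNMT1 includes S1PR2, which is listed under 2 identifiers, at 7.29 and 10.1 FPKM under one and 5.34 and 3.17 FPKM under the other. DNMT3B, the other de novo enzyme and a gene known to be high in pluripotent cells, was at 12.3 and 10.6 FPKM. Its catalytically inactive partner DNMT3L was at 0.0123 and 0.0144 FPKM.

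PRC2 was represented by its core subunits and a substoichiometric partner. All 5 genes were lower in processed cells at some size, 4 of them with separate bounds, against 58.3% and 43.7% of all genes. After division by the median ratio EZH2 was at 0.03 and the bounds of EZH1 overlapped. SUZ12, the scaffold of the complex (chromosome 17, 30264037 to 30328064), was at 16.3 FPKM (15.8 to 16.9) in live and 9.51 FPKM (9.20 to 9.82) in processed cells, a log2 ratio of -0.72. EED, which binds methylated histone H3, was at 21.8 FPKM (20.8 to 22.7) and 14.7 FPKM (13.8 to 15.5), a log2 ratio of -0.54. EZH2, the main methyltransferase of dividing cells, was by contrast at 35.5 FPKM (34.4 to 36.7) and 33.98 FPKM (32.7 to 35.3) with overlapping bounds. The level of EZH2 relative to EED consequently was 1.63 in live and 2.32 in processed cells. EZH1, the paralog known from resting cells, was at 9.65 FPKM (8.96 to 10.3) and 8.21 FPKM (7.49 to 8.93), so that EZH2 exceeded EZH1 3.68-fold in live and 4.14-fold in processed cells. JARID2, which helps to recruit the complex, was at 14.8 and 12.1 FPKM. A partial copy of SUZ12, the pseudogene SUZ12P, was at 13.1 in live and 14.3 FPKM in processed cells, below SUZ12 in live but above it in processed cells. Because fragments could be split between such copies, the value of SUZ12 is uncertain. The same applies to EZH2, for which the pseudogene EZH2P1 was given at 6.47 and 8.30 FPKM with lower bounds of 0.

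Subunits of PRC1 moved both ways. RNF2 and RING1 are alternative catalytic subunits. RNF2 was higher in processed cells, at 21.5 FPKM (20.4 to 22.6) against 14.5 FPKM (13.8 to 15.2), a log2 ratio of 0.54 that was the highest of the list. RING1 was lower, at 24.7 FPKM (23.8 to 25.5) against 30.8 FPKM (29.8 to 31.7). RING1 was the higher of the pair in both libraries, 2.12-fold in live cells but only 1.15-fold in processed cells.

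The PCGF subunits define the variants of PRC1. PCGF2 was at 41.9 and 42.5 FPKM with overlapping bounds, whereas BMI1 was at 21.3 FPKM (20.3 to 22.2) in live and 16.8 FPKM (14.4 to 19.2) in processed cells. BMI1 overlaps COMMD3, which was higher in processed cells (25.02 and 29.7 FPKM). The CBX subunits bind methylated histone H3 through a chromodomain. CBX2 was by far the most abundant of the 3 listed, at 38.6 and 31.7 FPKM, followed by CBX8, at 9.05 FPKM (8.34 to 9.76) in live and 11.2 FPKM (10.3 to 12.0) in processed cells. CBX7, the CBX subunit known from pluripotent cells, was the lowest of the 34 genes, at 1.77 FPKM (1.40 to 2.14) and 0.701 FPKM (0.613 to 0.790). Its log2 ratio was -0.70, but on the FPKM scale it was 2.53-fold lower, and with a pseudocount of 0.1 in place of 1 it joined TET3 beyond the 2-fold line at -1.22. The order of CBX2, CBX8 and CBX7 was the same in both libraries, and their bounds did not overlap.

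Among the histone demethylases, KDM6A and KDM6B remove the methylation placed by PRC2. KDM6A was higher in processed cells, at 52.3 FPKM (50.3 to 54.3) against 41.0 FPKM (39.6 to 42.3), whereas KDM6B was lower, at 23.6 FPKM (23.1 to 24.1) against 27.4 FPKM (26.8 to 27.9). The ratio of KDM6A to KDM6B was 1.498 in live and 2.21 in processed cells. KDM5B, which removes the methylation typical of active promoters, was at 57.0 FPKM (55.8 to 58.2) in live and 36.9 FPKM (36.4 to 37.4) in processed cells, a log2 ratio of -0.61. KDM5B-AS1, by its name an antisense transcript of KDM5B, was higher in processed cells, at 10.3 FPKM against 5.22 FPKM. The locus of KDM5B is overlapped on the same strand by the processed pseudogene RP11-480I12.2. That pseudogene was at 7.29 in live and 15.2 FPKM in processed cells, with lower bounds of 0. The share of fragments between it and KDM5B was not tested. KDM1A, which removes methylation at enhancers, was at 91.9 in live and 109 FPKM in processed cells, but its live bounds of 0 to 379 permit no direction. SETD2, a methyltransferase that marks transcribed gene bodies, was at 16.4 FPKM in live cells, with bounds from 0 to 41.5, and 10.997 FPKM in processed cells.

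Acetyltransferases and deacetylases lay close between libraries, apart from HDAC3. The acetyltransferases EP300 and CREBBP had log2 ratios of -0.18 and -0.22, from 17.3 to 15.2 FPKM and from 25.3 to 21.6 FPKM, and the ratio of CREBBP to EP300 was 1.46 in live and 1.42 in processed cells. HDAC2, the most abundant gene of the list, was at 186 FPKM (182 to 190) and 172 FPKM (168 to 176). HDAC1 was at 56.8 and 57.1 FPKM with overlapping bounds. HDAC3, the deacetylase of the NCoR and SMRT corepressors, was higher in processed cells, at 65.4 FPKM (63.1 to 67.8) against 45.6 FPKM (44.2 to 47.1), a log2 ratio of 0.51. HDAC1 was consequently 1.24 times HDAC3 in live cells and 0.873 times HDAC3 in processed cells, and this reversal of order lay outside the bounds in both libraries. The locus of HDAC3 is overlapped on the same strand by ARAP3, which was also higher in processed cells (2.27 and 3.24 FPKM). The share of fragments between ARAP3 and HDAC3 was not tested.

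The SWI/SNF subunits of the list differed little. SMARCA4 and SMARCA2 are the alternative ATPases. SMARCA4 was at 92.5 FPKM (90.1 to 94.9) in live and 92.7 FPKM (90.6 to 94.8) in processed cells. SMARCA2 was at 12.7 FPKM (11.5 to 13.9) and 14.9 FPKM (13.7 to 16.1), and SMARCA4 exceeded it 7.26-fold and 6.22-fold. The core subunit SMARCB1 was at 100.2 FPKM (98.5 to 102) and 91.6 FPKM (89.9 to 93.3). ARID1A was at 38.0 in live and 37.3 FPKM in processed cells, where its status was FAIL, and its alternative ARID1B was at 19.4 and 16.5 FPKM with separate bounds. The 5 listed genes had a median log2 ratio of -0.03 and a range from -0.22 to 0.21. The 17 other SWI/SNF genes examined had a median of -0.13. With separate bounds, 10 were lower and 3 higher (58.8% and 17.6%, against 43.7% and 28.1% of all genes). PBRM1 (30.3 and 16.6 FPKM) and SMARCC1 (57.1 and 39.9 FPKM) were among the lower ones. SMARCD3 (28.8 and 37.2 FPKM) and ACTL6B (2.33 and 3.82 FPKM) were among the higher ones. Of the CHD remodellers, CHD4, the ATPase of the NuRD complex, was at 80.5 FPKM (78.5 to 82.5) in live and 66.4 FPKM (62.7 to 70.2) in processed cells, and CHD7, known for its role in CHARGE syndrome, was at 35.7 and 31.8 FPKM with overlapping bounds.

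The difference between libraries varied with level within the list. All 5 genes with a mean FPKM under 10, namely EZH1, CBX7, TET1, TET2 and TET3, were lower in processed cells with separate bounds. The bounds of EZH1 overlapped after division by the median ratio and after scaling to equal FPKM sums. The median log2 ratio of the 5 genes was -0.70. Of 6470 protein-coding genes in that range of FPKM, 45.9% had separate bounds and lower values, and the median was -0.14. The median was -0.22 for the 13 chromatin regulators from 10 to 30 FPKM and -0.04 for the 14 from 30 to 100 FPKM, against -0.11 and -0.08 for protein-coding genes. For the 2 at 100 FPKM or more, KDM1A and HDAC2, it was 0.07, against -0.08. Across the 34 genes, Spearman's rho between mean FPKM and log2 ratio was 0.498, compared with 0.059 across protein-coding genes. Across 96 other expressed chromatin genes, described below, it was 0.233, so a positive rho was not particular to the list. All are descriptions across genes that share the same pair of libraries.

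**Figure D3:**
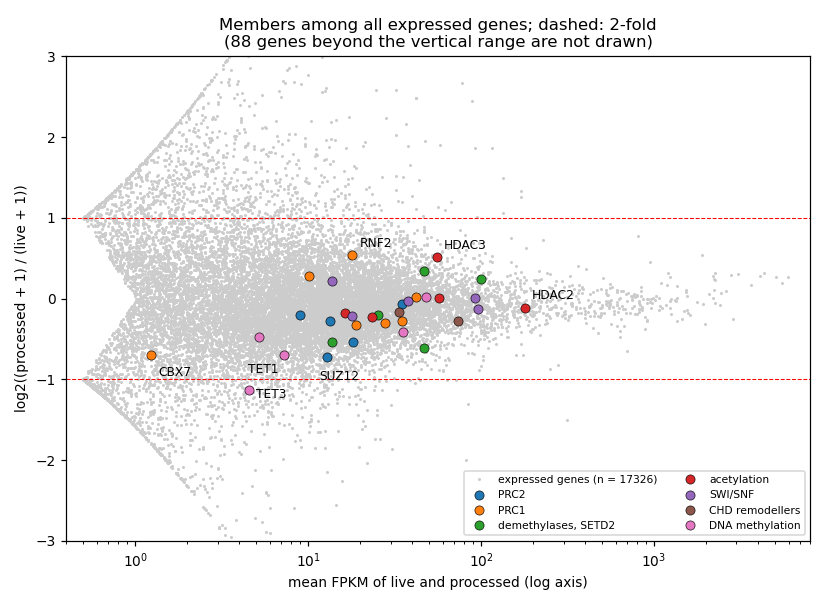
Log2 ratio against mean FPKM (log axis) for 17326 expressed genes in grey and the 34 chromatin regulators coloured by class, with 2-fold as dashed lines. The chromatin regulators lie inside the grey cloud, and the 5 genes under a mean of 10 FPKM all lie below 0.

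Most of these genes have long transcripts, with a median longest annotated transcript of 6.67 kb over the 33 genes that could be matched, against 3.84 kb over protein-coding genes. Transcript length moved weakly with the ratio in protein-coding genes. The median log2 ratio of protein-coding genes was 0.07 under 1 kb, -0.12 from 3 to 5 kb, -0.22 from 7 to 10 kb and -0.18 at 10 kb or more. At any size, 63.4% of them were lower in processed cells from 3 to 5 kb and 66.4% from 5 to 7 kb. The share was 70.1% from 7 to 10 kb and 64.6% at 10 kb or more. In the chromatin regulators the median log2 ratio was -0.24 from 3 to 5 kb (8 genes), -0.18 from 7 to 10 kb (9 genes) and -0.22 at 10 kb or more (6 genes). Within the class from 7 to 10 kb, TET1 lay at -0.70 and SMARCA2, with overlapping bounds, at 0.21. KDM6A, with the longest annotated transcript of the list at 12117 nt, was higher in processed cells, and TET3, at 12060 nt, was lowest in ratio. Their median annotated transcripts were shorter, 5450 nt for KDM6A and 3391 nt for TET3. Spearman's rho between length and log2 ratio was -0.158 across the 33 genes and -0.146 across protein-coding genes. With the median annotated transcript length of each gene in place of the longest, rho was -0.256 and -0.091. The part of transcript length in the result was not tested.

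**Figure D4:**
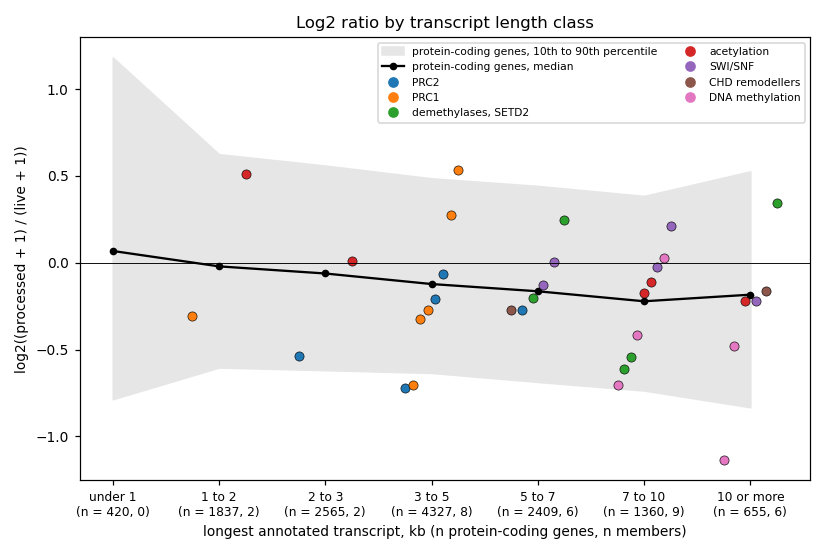
Log2 ratio by class of the longest annotated transcript, with the median and the 10th to 90th percentile of protein-coding genes and the 33 matched chromatin regulators as points coloured by class. The median of protein-coding genes declines from 0.07 under 1 kb to -0.22 at 7 to 10 kb, and TET3, SUZ12 and CBX7 lie below the 10th percentile of their classes.

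A further 97 genes of the same complexes and pathways were examined, of which 96 reached 1 FPKM in either library. In these, 50 were lower and 18 higher with separate bounds, 52.1% and 18.8% against 43.7% and 28.1% of all genes, and the median log2 ratio was -0.12. Past 2-fold were INO80 and PCGF5. INO80, the ATPase of the INO80 remodelling complex, was at 8.21 FPKM (7.56 to 8.86) in live and 34.3 FPKM (32.0 to 36.5) in processed cells, a log2 ratio of 1.94. Its locus is overlapped by no gene that reached 1 FPKM. PCGF5, a subunit of a PRC1 variant, was at 10.1 FPKM (9.42 to 10.9) and 3.87 FPKM (3.53 to 4.22), a log2 ratio of -1.19.

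Accessory Polycomb subunits varied. Of 13 further PRC1 genes, 7 were lower and 1 higher with separate bounds, 53.8% and 7.69% against 43.7% and 28.1% of all genes. PCGF6 had a log2 ratio of -0.91, from 7.28 to 3.41 FPKM, whereas PCGF1 was the higher one, from 8.23 to 11.8 FPKM. Of 6 further PRC2 genes, 3 were lower and 1 higher with separate bounds. PHF19 (11.6 and 6.03 FPKM), AEBP2 (20.7 and 11.4 FPKM) and RBBP4 (116 and 91.8 FPKM) were the lower ones, and PHF1 (17.9 and 21.7 FPKM) was the higher one. RBBP7 and MTF2 had overlapping bounds. Among the other chromatin genes with low ratios, SUV39H2, a methyltransferase of heterochromatin, had a log2 ratio of -0.98. DPF1, a SWI/SNF subunit of neurons, was at 2.93 in live and 0.966 FPKM in processed cells, just inside the 2-fold line but 3.03-fold lower on the FPKM scale. With a pseudocount of 0.1, DPF1, PCGF6, SUV39H2 and the remodeller CHD5 (1.27 and 0.326 FPKM) passed 2-fold as well. On the other side, KDM4C had a log2 ratio of 0.62, BAZ1A 0.60 and ACTL6B 0.53.

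The methyltransferases of the trithorax group, which are absent from the 34 genes, were examined with their partners. Of these 12 genes, 6 had higher and 6 lower values at any size, 5 were lower and 3 higher with separate bounds, or 41.7% and 25% against 43.7% and 28.1% of all genes, and their median log2 ratio was 0.00. KMT2B (listed as MLL4) was higher in processed cells, at 25.5 FPKM (24.3 to 26.7) against 14.2 FPKM (13.7 to 14.7), a log2 ratio of 0.81. KMT2A (listed as MLL) was lower, at 7.82 FPKM (7.28 to 8.35) against 10.6 FPKM (9.91 to 11.2). KMT2D (26.6 and 29.0 FPKM) and KMT2C (12.4 and 13.0 FPKM, status FAIL in processed cells) had overlapping bounds. SETD1A (9.85 and 8.76 FPKM) and ASH1L (4.70 and 3.61 FPKM) were lower and SETD1B (5.76 and 6.66 FPKM) was higher in processed cells. The shared subunits also divided, with WDR5 at 21.5 and 17.0 FPKM and DPY30 at 48.2 and 54.8 FPKM.

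**Figure D5:**
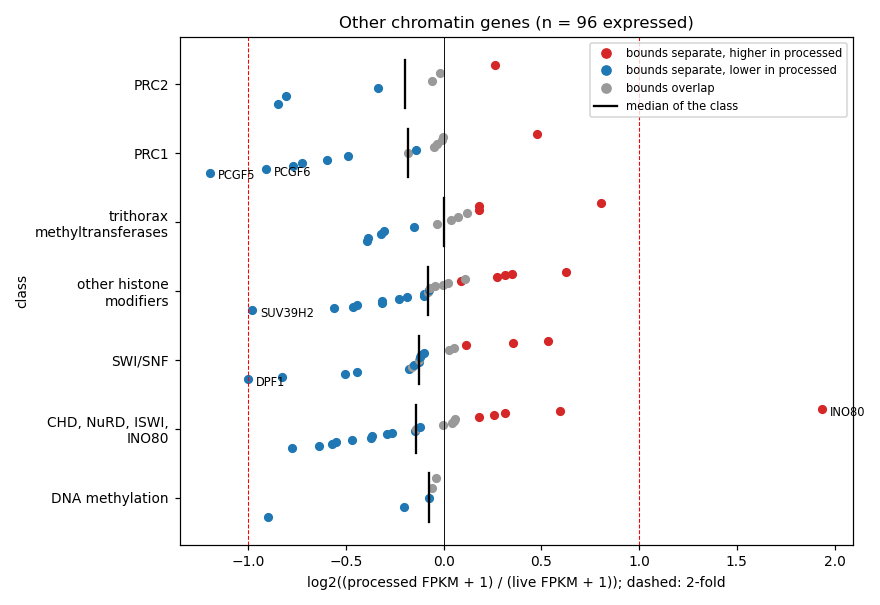
Log2 ratio of the 96 other expressed chromatin genes by class, coloured by whether the bounds of live and processed cells are separate, with the median of each class as a black line and 2-fold as dashed lines. INO80 at 1.94 and PCGF5 at -1.19 lie beyond 2-fold, and the median of the trithorax class lies at 0.00.

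Several of these genes are known to rise in dividing cells, among them EZH2, DNMT1 and UHRF1. Markers of proliferation were not uniform between the libraries. TOP2A (48.2 and 57.2 FPKM), CCNB1 (63.1 and 89.1 FPKM) and MKI67 (12.2 and 15.0 FPKM) were higher in processed cells, whereas MCM2 (49.8 and 42.1 FPKM) and PCNA (91.0 and 79.1 FPKM) were lower. EZH2, DNMT1 and UHRF1 (22.2 and 21.6 FPKM) had overlapping bounds. The part of cell division in these values was not tested.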

How the data were processed

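Paired reads (80 nt) were mapped by the authors with STAR 2.2.0c and GENCODE 14 on GRCh37/hg19, and the authors deposited FPKM values with lower and upper bounds and a status from Cufflinks 2.0.2. RNA was poly-A purified, which leaves transcripts without a poly-A tail unmeasured. Read counts were not analysed here. In single-transcript genes, low FPKM multiplied by length less 170 nt (a length within the range the methods give) had a first step of 0.0100 in live and 0.0107 in processed cells, a 1.07-fold larger step in the processed library.

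Genes were joined by Ensembl identifier in pandas 2.3.3 under Python 3.11.15, with scipy 1.17.1 and numpy 2.4.6. A pseudocount of 1 and a filter of FPKM of at least 1 in either library were used. Transcript length, strand and gene type came from GENCODE 44 mapped to GRCh37, which held 94.5% of identifiers. PCGF2 could not be matched. The gene list, the 97 further genes and the comparisons were chosen with earlier results of these data known. All 34 genes are named. Of the further genes, those past 2-fold, the 5 largest each way with separate bounds and a log2 ratio over 0.5 in size, the trithorax methyltransferases and DNMT3B were named, and a few others were named after their values were seen. A gene that this rule names is not reported here. Calculations were tested on simulated data. With 1 sample per condition no statistical test was made.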

Additional observations from a re-analysis of the deposited data

How the results depend on the processing

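No paired analysis was possible because each condition has 1 library. With a pseudocount of 0.1 or 0.01, the genes of the list more than 2-fold lower were 2 (TET3 and CBX7) in place of 1, and those among the 97 other chromatin genes were 5 in place of 1. Over all genes, a pseudocount of 0.1 gave 1715 higher and 1753 lower beyond 2-fold, and 0.01 gave 1773 and 1827, in place of 1138 and 1072. Without the filter, 12906 of 55797 genes were lower and 6732 higher with separate bounds. At 10 FPKM or more, 4019 of 8515 genes were lower and 2285 higher with separate bounds, and 172 and 255 lay beyond 2-fold. With an FPKM of at least 10 required, none of the 29 remaining genes was more than 2-fold lower (0 in place of 1), as TET3 was left out. Division by the median ratio gave 8 genes with separate bounds and higher values in place of 4, the additions being PCGF2, HDAC1, SMARCA2 and SMARCA4, and it raised the median over all genes by 0.09 and turned EZH2 from -0.06 to 0.03. Of the 34 genes, none with separate bounds changed the sign of its log2 ratio under the alternatives run, which also included scaling to equal FPKM sums and no filter on low FPKM. Scaling to equal FPKM sums gave 19 lower and 5 higher genes with separate bounds, as EZH1 was lost and SMARCA2 was added. Leaving out the 3 genes with status FAIL, an alternative chosen after seeing the data, left 20 lower and 4 higher. The bounds cover each library alone, and differences between repeated libraries cannot be estimated here.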
